A study of Homo sapiens with 18 samples.

Results

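The genes described are CDKN1A, CDKN1B, CDKN1C, CDKN2A, CDKN2B, CDKN2D and CDKN3, which encode inhibitors and regulators of the cyclin-dependent kinases. They were chosen by symbol, and each was read through every probe set that the array annotation assigns to that symbol alone. This gave 7 genes of the 19775 with such a probe set, and 16 probe sets of the 54675 on the array. Their transcripts were measured in CWR22Rv1 and DU145, a pair of established human prostate cancer lines, on Affymetrix U133 Plus 2.0 arrays. In each line, 3 arrays held RNA from cells given Stat3 siRNA, 3 from cells given Stat5a/b siRNA, which is directed against STAT5A and STAT5B together, and 3 from cells given scramble siRNA. All 6 groups, the scramble controls included, had been transfected with Lipofectamine 2000 and were harvested after 48 h, and no untransfected cells were analysed here. The labels name triplicates without saying that they were separate cultures, so the p-values describe how these samples spread, and that spread may be technical only. In RNA from whole cultures, fewer cells with a transcript and less of it per cell cannot be told apart.

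Cyclin-dependent kinases drive cells through the cycle when bound to cyclins, and phosphorylate the retinoblastoma protein, which releases E2F factors. The Cip/Kip inhibitors (p21, p27 and p57, from CDKN1A, CDKN1B and CDKN1C) bind cyclin-kinase complexes of several kinds, whereas the INK4 inhibitors (among them p16, p15 and p19, from CDKN2A, CDKN2B and CDKN2D) bind CDK4 and CDK6 alone and act through the retinoblastoma protein. CDKN3 is a phosphatase that removes the activating phosphate from CDK2. STAT3 and STAT5 are transcription factors that receptors for cytokines and growth factors switch on, and they bind DNA at the palindrome TTCNNNGAA, and the comparisons ask which transcripts change when either is depleted.

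The siRNA targets were checked first. STAT3 transcript stood at 45.7% of its scramble level in CWR22Rv1 Stat3 siRNA arrays and at 32.6% in DU145 Stat3 siRNA arrays, and STAT5B at 53.4% in CWR22Rv1 and 39.1% in DU145 Stat5a/b siRNA arrays, all with adjusted p of 1.24e-05 or less. STAT5A stood at 78.8% in CWR22Rv1 (adjusted p = 0.146) and 81.1% in DU145 (adjusted p = 0.101), which did not pass the test. The lines differed in their starting level of STAT3. Under scramble siRNA it averaged 7.28 in CWR22Rv1 and 10.90 in DU145 on the log2 scale, against 6.15 and 9.28 with Stat3 siRNA. DU145 thus held more STAT3 transcript after knockdown than CWR22Rv1 did before it. Within a group, arrays correlated at 0.993 to 0.998 over probe sets, which are not independent of each other. The 3' minus 5' difference of the GAPDH control probe sets ran from 0.041 to 0.153 over all arrays. That of the ACTB control probe sets was larger and separated the lines, at 0.632 to 0.848 in CWR22Rv1 and 0.454 to 0.625 in DU145. Its part in the differences between the lines was not tested. The median SD of a gene within a group was 0.0724 to 0.0824 in CWR22Rv1 and 0.112 to 0.126 in DU145. The luminal keratin KRT18 averaged 12.58 in CWR22Rv1 and 13.01 in DU145 scramble arrays on the log2 scale. Of the other epithelial markers, KRT8 (10.11 and 11.01) and KRT19 (10.27 and 11.81) were also higher in DU145, and EPCAM (11.68 and 11.15) and CDH1 (11.83 and 10.10) in CWR22Rv1. In DU145, Stat3 and Stat5a/b siRNA arrays averaged 9.11 and 8.92 for CDH1, 10.66 and 10.75 for EPCAM, and 12.85 and 13.07 for KRT18. The part of these markers in the results was not tested. The prostate proteases KLK2 and TMPRSS2 averaged 10.14 and 8.49 in CWR22Rv1, against 3.54 and 4.81 in DU145 scramble arrays. KLK3, of the same list, averaged 6.76 in CWR22Rv1 and 6.69 in DU145. The leukocyte marker PTPRC and the endothelial marker CDH5 lay between 2.96 and 3.46 in every group, and ITGAM, CD3E, PECAM1 and VWF between 4.63 and 5.61. CD14 averaged 5.02 with Stat3 siRNA and 5.16 with Stat5a/b siRNA, against 6.12 with scramble siRNA in DU145, and 4.26 to 4.31 in CWR22Rv1, and the part of this marker in the results was not tested. Of the fibroblast markers LUM averaged 8.12 in CWR22Rv1 and 2.56 in DU145 scramble arrays, with COL1A2, DCN and PDGFRA between 4.22 and 5.15 in all groups.

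Promoter windows from RefSeq (GRCh38.p14, 250 bases before the annotated start and 50 after it) were matched for 6 of the 7 genes, with 7 windows in all because CDKN2A has a pair of starts. The window of CDKN3 is shown because it alone held the STAT palindrome, that of CDKN1A because this gene gave the largest change, and that of CDKN2B because its calls were opposed between the siRNAs. In the CDKN3 window, chr14:54396757-54397056 on the plus strand, capitals mark the match to TTCNNNGAA. In the windows of CDKN1A, chr6:36678464-36678763 on the plus strand, and of CDKN2B, chr9:22009256-22009555 on the minus strand, capitals mark GC boxes (GGGCGG or its complement CCGCCC), the sites bound by SP1 and related factors.
CDKN3: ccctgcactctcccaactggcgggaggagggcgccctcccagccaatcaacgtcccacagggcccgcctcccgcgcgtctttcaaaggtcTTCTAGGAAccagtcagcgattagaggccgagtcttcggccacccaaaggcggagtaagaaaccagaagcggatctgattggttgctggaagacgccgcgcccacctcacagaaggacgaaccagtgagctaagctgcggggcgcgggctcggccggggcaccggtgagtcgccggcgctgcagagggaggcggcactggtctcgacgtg
CDKN1A: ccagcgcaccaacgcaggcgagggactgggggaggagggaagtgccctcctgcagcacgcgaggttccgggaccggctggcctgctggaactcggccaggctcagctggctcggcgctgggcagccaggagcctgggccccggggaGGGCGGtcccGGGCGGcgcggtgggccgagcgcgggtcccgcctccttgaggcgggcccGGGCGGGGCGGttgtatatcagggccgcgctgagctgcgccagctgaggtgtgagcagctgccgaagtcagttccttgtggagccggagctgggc
CDKN2B: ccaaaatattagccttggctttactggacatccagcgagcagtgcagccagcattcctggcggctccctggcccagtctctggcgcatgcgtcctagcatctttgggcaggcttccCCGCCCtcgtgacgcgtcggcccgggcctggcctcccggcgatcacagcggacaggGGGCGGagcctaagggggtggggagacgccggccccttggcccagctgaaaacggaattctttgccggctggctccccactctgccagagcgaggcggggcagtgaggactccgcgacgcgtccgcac
The match in CDKN3, TTCTAGGAA, begins 160 bases before the start. The palindrome TTCNNNGAA, which reads the same on both strands, occurs in 7.66% of all 35116 promoter windows of this length, and the form in which TTC and GAA stand 4 bases apart occurs in 6.44% of them and in none of the 7. The GC box was present on either strand in 5 of the 7 windows (CDKN1A, CDKN1B, 1 of the pair of CDKN2A, CDKN2B and CDKN2D), against 45% of all windows, and the CDKN1A window held 4, a pair of which overlap. The element TTTGAA, known from genes of the late cell cycle, was found in the CDKN3 window only, as its complement TTCAAA, and in 15.2% of all windows on either strand. These matches describe the letters in the windows, and binding was not measured.

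All 7 genes differed between the lines under scramble siRNA. CDKN1A, CDKN1B and CDKN2D were higher in CWR22Rv1, and CDKN1C, CDKN2A, CDKN2B and CDKN3 were higher in DU145. The largest difference was in CDKN2A, which stood at 9.66, 9.63 and 9.61 in CWR22Rv1 and at 12.14, 12.08 and 11.92 in DU145 scramble arrays, a log2 difference of -2.41 ± 0.080 (standard error; adjusted p = 6.87e-14), or 18.8% of the DU145 level. Its chromosomal neighbour CDKN2B followed with -2.05 ± 0.073 (adjusted p = 1.97e-13), and CDKN3 differed by -0.84 ± 0.065 (adjusted p = 5.07e-09). The genes with more transcript in CWR22Rv1 were CDKN2D, by 1.04 ± 0.11, CDKN1A, by 0.88 ± 0.091, and CDKN1B, by 0.84 ± 0.086, each with an adjusted p of 4.86e-07 or less. CDKN1C gave the smallest difference, -0.33 ± 0.13 (adjusted p = 0.0333), and this call was lost on leaving out any of 5 of the 6 arrays, the exception being CWR22Rv1 scramble replicate 2 (adjusted p between 0.0520 and 0.117), and with quantile normalisation (0.0898). At this threshold, an adjusted p under 0.05 over all 19775 genes, 30% of all genes were higher and 27% lower in CWR22Rv1, so that most genes differed between these lines.

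**Figure D1:**
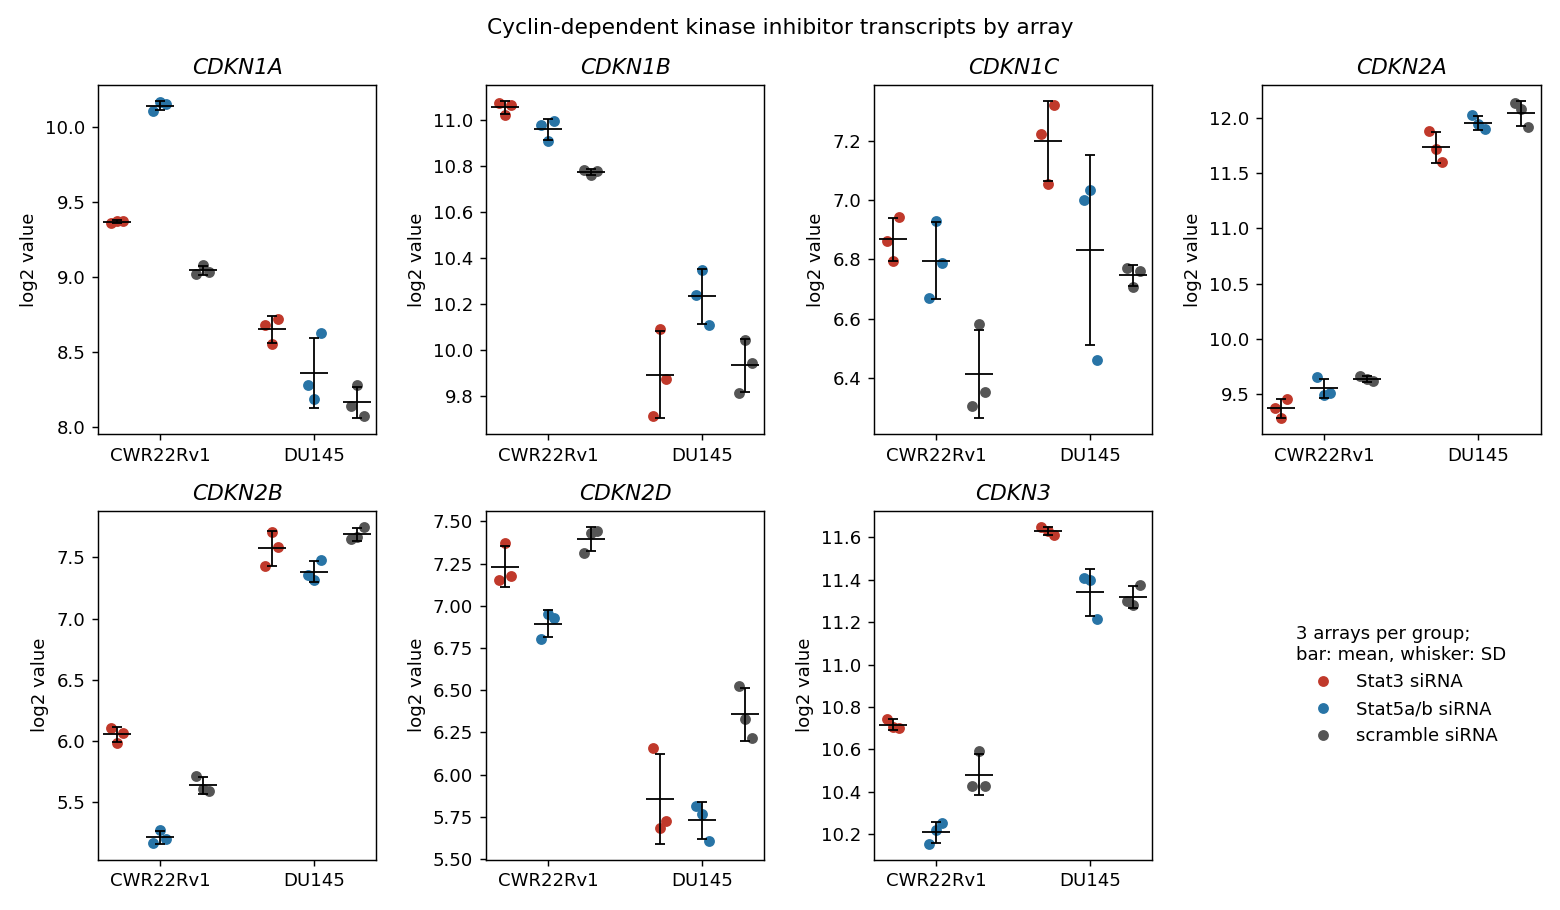
Log2 value of each inhibitor gene in each of the 18 arrays, with CWR22Rv1 to the left of DU145 and Stat3 siRNA (red), Stat5a/b siRNA (blue) and scramble siRNA (grey) within each line; bars are means and whiskers SDs of 3 arrays, and every panel has its own scale that does not start at 0. CDKN1A under Stat5a/b siRNA in CWR22Rv1, at 10.11 to 10.17, lies apart from all other groups, and CDKN2A and CDKN2B separate the lines more than any siRNA separates the groups of a line.

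With Stat3 siRNA, 2 of the 7 genes rose and 0 fell in CWR22Rv1, where 2.75% of all genes were called higher and 2.02% lower (544 and 400 genes, or 426 and 496 after quantile normalisation). In DU145, 3 rose and 2 fell with the same siRNA, where 7.51% of all genes were called higher and 8.25% lower. Under Stat5a/b siRNA, 1 rose and 3 fell in CWR22Rv1, against 3.16% and 3.3% of all genes, and 1 rose and 2 fell in DU145, against 11.8% and 12.5%. The 3 siRNA arrays lay all above or all below the 3 scramble arrays in CWR22Rv1 for 6 genes under Stat3 siRNA and 6 under Stat5a/b siRNA, where this held for 32.3% and 31.1% of all genes. In DU145 it held for 5 genes with Stat3 siRNA and 3 with Stat5a/b siRNA, against 26.2% and 34.4% of all genes. The median log2 change of the 7 genes in CWR22Rv1 was 0.28 for Stat3 siRNA and -0.09 for Stat5a/b siRNA, and in DU145 -0.04 and 0.02, while the median over all genes lay between -0.0042 and 0.0244. The comparisons of a line share their scramble arrays, so that the counts of the siRNAs in a line are not independent of each other. Counts of the lines depend on the pooled spread, as DU145 arrays were more spread. With each line fitted alone, Stat3 siRNA called 6 of the 7 genes in CWR22Rv1 and 3 in DU145, and 2059 and 1549 of all genes. Stat5a/b siRNA then called 2372 of all genes in CWR22Rv1 and 2877 in DU145.

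**Figure D2:**
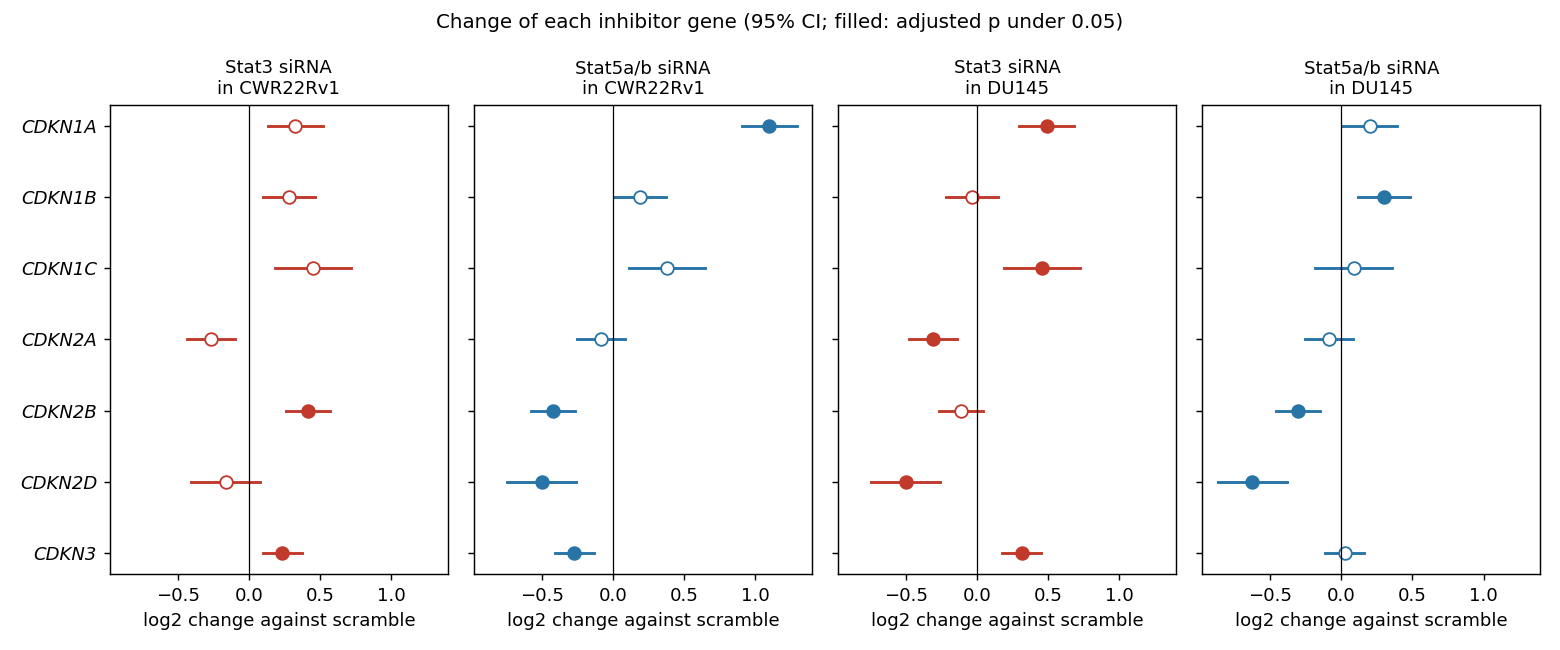
Log2 change of each inhibitor gene against the scramble arrays of its line (3 arrays against 3), 1 panel per siRNA and line; lines are 95% confidence intervals from the limma fit, and filled points passed an adjusted p under 0.05. CDKN1A under Stat5a/b siRNA in CWR22Rv1 is the farthest from 0, at 1.10, and CDKN2B lies at 0.41 with Stat3 siRNA and -0.42 with Stat5a/b siRNA in CWR22Rv1.

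CDKN1A encodes p21, an inhibitor of CDK2 complexes. It gave the largest change of the 7 genes. Its only probe set read 9.36, 9.38 and 9.38 in CWR22Rv1 Stat3 siRNA arrays, 10.11, 10.17 and 10.16 in Stat5a/b siRNA arrays, and 9.02, 9.08 and 9.03 in scramble arrays. The 3 CWR22Rv1 groups did not overlap. Transcript rose 2.14-fold with Stat5a/b siRNA (log2 change 1.10 ± 0.091, adjusted p = 2.08e-06), and was the gene with rank 19 by p-value of all 19775. With Stat3 siRNA the change in CWR22Rv1 was 0.33 ± 0.091, just short of the threshold (adjusted p = 0.0512), and it passed with an intensity trend in the variance (0.0169), with only the brighter genes tested (0.0184) and with CWR22Rv1 fitted alone (0.0022). In DU145 the order of the siRNAs was the other way round. CDKN1A read 8.68, 8.55 and 8.72 in Stat3 siRNA arrays, 8.28, 8.18 and 8.63 in Stat5a/b siRNA arrays, and 8.14, 8.28 and 8.07 in scramble arrays. Replicate 3 of the Stat5a/b siRNA arrays stood near the Stat3 siRNA arrays, and the other 2 within or beside the range of the scramble arrays. Stat3 siRNA raised CDKN1A by 0.49 ± 0.091 (adjusted p = 0.00129), whereas the change with Stat5a/b siRNA, 0.20 ± 0.091, did not pass (adjusted p = 0.127) except without Stat5a/b replicate 2 (0.29, adjusted p = 0.0344) and with quantile normalisation (0.23, adjusted p = 0.0452). Over its 13 alternatives the latter change ran from 0.07 to 0.29, with adjusted p up to 0.523. The effect of Stat5a/b siRNA was larger in CWR22Rv1 than in DU145 by 0.90 ± 0.13 (adjusted p = 3.77e-04), and that of Stat3 siRNA differed by -0.16 ± 0.13 (95% interval -0.43 to 0.11). In order of level, the CWR22Rv1 Stat5a/b, Stat3 and scramble groups came first, followed by the DU145 Stat3, Stat5a/b and scramble groups, and only the DU145 Stat5a/b group overlapped its neighbours.

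CDKN1B encodes p27, which holds cyclin E complexes with CDK2 inactive and is regulated largely through protein turnover. It changed little. The probe set read 11.08, 11.02 and 11.07 in CWR22Rv1 Stat3 siRNA arrays, 10.98, 10.91 and 10.99 in Stat5a/b siRNA arrays, and 10.78, 10.76 and 10.78 in scramble arrays. All siRNA arrays of CWR22Rv1 lay above its scramble arrays, yet neither change passed, at 0.28 ± 0.086 with Stat3 siRNA (adjusted p = 0.0766) and 0.19 ± 0.086 with Stat5a/b siRNA (adjusted p = 0.273). With CWR22Rv1 fitted alone both passed (0.0048 and 0.0226), and the first also with the replicate block (0.0216), an intensity trend (0.0199) and only the brighter genes tested (0.0294). In DU145 the values were 9.71, 10.09 and 9.87 with Stat3 siRNA, 10.24, 10.35 and 10.11 with Stat5a/b siRNA, and 9.81, 10.04 and 9.94 with scramble siRNA. CDKN1B rose in DU145 with Stat5a/b siRNA, by 0.30 ± 0.086 (adjusted p = 0.0177), a call that was lost without scramble replicate 1 (adjusted p = 0.0894), without Stat5a/b replicate 2 (0.0841) and with DU145 fitted alone (0.108). With Stat3 siRNA the DU145 change was -0.04 ± 0.086 (95% interval -0.22 to 0.14).

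CDKN1C encodes p57, whose gene on chromosome 11 is imprinted and expressed from the maternal copy. It has 5 probe sets, and the brightest of them, 213348_at, stands for the gene in the tests over genes. That probe set read 6.86, 6.80 and 6.94 in CWR22Rv1 Stat3 siRNA arrays, 6.67, 6.93 and 6.79 in Stat5a/b siRNA arrays, and 6.31, 6.58 and 6.35 in scramble arrays. Both siRNA groups lay above scramble without overlap, by 0.45 ± 0.13 with Stat3 siRNA (adjusted p = 0.0515) and 0.38 ± 0.13 with Stat5a/b siRNA (adjusted p = 0.0946), and neither passed. Both passed with only the brighter genes tested (0.0205 and 0.0413) and with CWR22Rv1 fitted alone (0.0150 and 0.0257), and the first also with an intensity trend (0.0280). In DU145 it read 7.22, 7.05 and 7.32 with Stat3 siRNA, 7.0, 7.03 and 6.46 with Stat5a/b siRNA, and 6.77, 6.71 and 6.76 with scramble siRNA. It rose by 0.45 ± 0.13 with Stat3 siRNA in DU145 (adjusted p = 0.0213), the same size of change as in CWR22Rv1, with a difference between the lines of -3e-04 and a 95% interval from -0.38 to 0.38. The DU145 call did not hold without scramble replicate 2 (adjusted p = 0.0653), Stat3 replicate 1 (0.0541) or Stat3 replicate 3 (0.0851), with DU145 fitted alone (0.0887), or in the mean of the 5 probe sets (0.16, adjusted p = 0.229). Among the other 4 probe sets none was called in any siRNA comparison: in DU145 with Stat3 siRNA they gave 0.27 (219534_x_at), 0.13 (213182_x_at), 0.08 (216894_x_at) and -0.12 (219533_at), the last with group means of 3.56 to 3.83. In CWR22Rv1 the same probe sets gave 0.41, 0.29, 0.05 and 0.04 with Stat3 siRNA. With Stat5a/b siRNA they gave 0.40, 0.30, 0.14 and 0.16 there. For 219534_x_at all siRNA arrays of CWR22Rv1 lay above its scramble arrays.

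CDKN2A encodes p16, an inhibitor of CDK4 and CDK6, and from another first exon ARF, which binds MDM2. These data do not tell the products apart. The probe set 209644_x_at read 9.37, 9.28 and 9.45 in CWR22Rv1 Stat3 siRNA arrays, 9.65, 9.49 and 9.50 in Stat5a/b siRNA arrays, and 9.66, 9.63 and 9.61 in scramble arrays. In DU145 it read 11.89, 11.72 and 11.61 with Stat3 siRNA, 12.03, 11.95 and 11.90 with Stat5a/b siRNA, and 12.14, 12.08 and 11.92 with scramble siRNA. In each line the Stat3 siRNA arrays were the lowest, and all lay below scramble. CDKN2A fell by 0.31 ± 0.080 on the log2 scale with Stat3 siRNA in DU145 (adjusted p = 0.0137), and the change in CWR22Rv1 was -0.27 ± 0.080 (adjusted p = 0.0690), which passed under 5 of the 13 alternatives. The DU145 call was lost without scramble replicate 1 (adjusted p = 0.0647), without Stat3 replicate 3 (0.0697), with DU145 fitted alone (0.0869) and in the mean of its 3 probe sets (-0.21, adjusted p = 0.0966). The second probe set, 207039_at, fell by 0.33 ± 0.066 with Stat3 siRNA in DU145 (adjusted p = 0.00363 over probe sets), and the third, 211156_at, was dim, with group means of 4.44 to 4.98. Stat5a/b siRNA gave -0.09 ± 0.080 in CWR22Rv1 and -0.09 ± 0.080 in DU145, neither of which passed (adjusted p = 0.671 and 0.478). With this siRNA 207039_at had the opposite sign, at 0.08 ± 0.066 in CWR22Rv1 and 0.13 ± 0.066 in DU145. Its 3 arrays lay above scramble in each line, without passing (adjusted p = 0.704 and 0.223 over probe sets). The dim 211156_at gave -0.21 and -0.33, which did not pass either.

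CDKN2B encodes p15, an inhibitor of CDK4 and CDK6 that is known as a target of TGF-beta signalling. In CWR22Rv1 the siRNAs had opposite calls on it, as they had on CDKN3. The probe set 236313_at read 6.11, 5.99 and 6.07 in CWR22Rv1 Stat3 siRNA arrays, 5.17, 5.28 and 5.20 in Stat5a/b siRNA arrays, and 5.72, 5.61 and 5.60 in scramble arrays. The 3 groups did not overlap. CDKN2B rose by 0.41 ± 0.073 with Stat3 siRNA (adjusted p = 0.00337) and fell by 0.42 ± 0.073 with Stat5a/b siRNA (adjusted p = 0.00192), so that Stat5a/b siRNA arrays held 55.9% of the level in Stat3 siRNA arrays (log2 difference -0.84 ± 0.073, adjusted p = 1.79e-06). In DU145 it read 7.43, 7.71 and 7.58 with Stat3 siRNA, 7.36, 7.31 and 7.48 with Stat5a/b siRNA, and 7.65, 7.66 and 7.75 with scramble siRNA. DU145 also showed a fall with Stat5a/b siRNA, by 0.30 ± 0.073 (adjusted p = 0.00596, and 0.0522 with DU145 fitted alone), while the Stat3 siRNA arrays overlapped scramble (-0.11 ± 0.073, adjusted p = 0.349). The effect of Stat3 siRNA was higher in CWR22Rv1 than in DU145 by 0.53 ± 0.10 (adjusted p = 0.0122), and that of Stat5a/b siRNA differed by -0.12 ± 0.10 (95% interval -0.34 to 0.10).

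The second probe set of CDKN2B, 207530_s_at, was dimmer and did not show the same pattern in CWR22Rv1. It read 4.20, 4.64 and 4.20 with Stat3 siRNA, 4.03, 4.39 and 4.46 with Stat5a/b siRNA, and 4.03, 4.06 and 4.19 with scramble siRNA in that line. Its changes were 0.25 ± 0.19 and 0.20 ± 0.19 in CWR22Rv1, and -0.30 ± 0.19 and -0.43 ± 0.19 in DU145, for Stat3 and Stat5a/b siRNA in that order, none of which passed. In the mean of both probe sets the CWR22Rv1 calls of CDKN2B were lost (0.33, adjusted p = 0.0626 with Stat3 siRNA, and -0.11, adjusted p = 0.649 with Stat5a/b siRNA). The DU145 call with Stat5a/b siRNA held in that mean.

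CDKN2D encodes p19, an INK4 inhibitor of CDK4 and CDK6 whose level is known to vary through the cell cycle. It fell in 3 of the 4 siRNA comparisons. The probe set 210240_s_at read 7.15, 7.37 and 7.17 in CWR22Rv1 Stat3 siRNA arrays, 6.80, 6.95 and 6.93 in Stat5a/b siRNA arrays, and 7.31, 7.43 and 7.44 in scramble arrays. In DU145 it read 6.16, 5.68 and 5.72 with Stat3 siRNA, 5.81, 5.77 and 5.61 with Stat5a/b siRNA, and 6.53, 6.33 and 6.21 with scramble siRNA. Every DU145 siRNA array lay below every DU145 scramble array, as did the Stat5a/b siRNA arrays in CWR22Rv1, whereas the CWR22Rv1 Stat3 siRNA arrays overlapped scramble. CDKN2D fell by 0.63 ± 0.11 with Stat5a/b siRNA (adjusted p = 7.65e-04) and by 0.50 ± 0.11 with Stat3 siRNA (adjusted p = 0.00608) in DU145. In CWR22Rv1 it fell by 0.50 ± 0.11 with Stat5a/b siRNA (adjusted p = 0.0140), and changed by -0.16 ± 0.11 with Stat3 siRNA (adjusted p = 0.543). The CWR22Rv1 call did not hold without scramble replicate 2 (adjusted p = 0.0544), scramble replicate 3 (0.0616) or Stat5a/b replicate 1 (0.0644). Neither line difference passed, at 0.34 ± 0.16 for Stat3 siRNA (adjusted p = 0.313, and 0.49, adjusted p = 0.0499 without DU145 Stat3 replicate 1) and 0.13 ± 0.16 for Stat5a/b siRNA. The second probe set, 213586_at, lay between 3.60 and 4.23 on all 18 arrays and was called in no siRNA comparison. In the mean of both probe sets the change with Stat3 siRNA in DU145 was -0.18 (adjusted p = 0.146) and that with Stat5a/b siRNA in CWR22Rv1 -0.23 (adjusted p = 0.114), while for Stat5a/b siRNA in DU145 it was -0.24 and still passed (adjusted p = 0.0290).

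CDKN3, the phosphatase acting on CDK2, is a gene of proliferating cells in spite of its inhibitor name. It was higher with Stat3 siRNA and lower or level with Stat5a/b siRNA. The probe set 1555758_a_at read 10.75, 10.71 and 10.70 in CWR22Rv1 Stat3 siRNA arrays, 10.15, 10.22 and 10.25 in Stat5a/b siRNA arrays, and 10.43, 10.59 and 10.43 in scramble arrays. In DU145 it read 11.65, 11.63 and 11.61 with Stat3 siRNA, 11.41, 11.40 and 11.21 with Stat5a/b siRNA, and 11.30, 11.28 and 11.38 with scramble siRNA. The CWR22Rv1 groups did not overlap, and in DU145 only the Stat3 siRNA arrays stood apart. CDKN3 rose with Stat3 siRNA by 0.24 ± 0.065 in CWR22Rv1 (adjusted p = 0.0477) and by 0.31 ± 0.065 in DU145 (adjusted p = 0.00293). It fell by 0.27 ± 0.065 with Stat5a/b siRNA in CWR22Rv1 (adjusted p = 0.0172), against a change of 0.02 ± 0.065 in DU145 (adjusted p = 0.840). The second probe set, 209714_s_at, gave 0.19 and -0.29 in CWR22Rv1 and 0.29 and -0.10 in DU145 for Stat3 and Stat5a/b siRNA in that order. These were close to the first, except with Stat5a/b siRNA in DU145, where the signs differed and neither passed.

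The rise of CDKN3 in CWR22Rv1 lay near the threshold, and 9 of its 13 alternatives did not call it, among them the omission of any array but scramble replicate 2 (adjusted p between 0.113 and 0.193). The fall with Stat5a/b siRNA was not called without scramble replicate 2 (-0.22, adjusted p = 0.0961), Stat5a/b replicate 1 (-0.25, 0.0793) or Stat5a/b replicate 2 (-0.28, 0.0550). The effect of Stat5a/b siRNA was lower in CWR22Rv1 than in DU145, with a difference of -0.30 ± 0.091 (adjusted p = 0.0458), which passed in 5 of 18 alternatives, and was not called without any 1 of 10 of the 12 arrays (adjusted p between 0.0554 and 0.121), the exceptions being DU145 scramble replicate 3 and DU145 Stat5a/b replicate 3.

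The siRNAs were also compared with each other, without the scramble arrays. In CWR22Rv1, Stat5a/b siRNA arrays held 1.71-fold the CDKN1A of Stat3 siRNA arrays (0.77 ± 0.091, adjusted p = 3.99e-05), with less CDKN2B, as given above, and less CDKN3 (-0.51 ± 0.065, adjusted p = 8.50e-05). CDKN2D gave -0.34 ± 0.11 in that comparison without passing (adjusted p = 0.0739), though it passed with the replicate block (0.0113), with CWR22Rv1 fitted alone (0.0125) and with only the brighter genes tested (0.0334). No other gene of the 7 passed, but the second probe set of CDKN2A, 207039_at, was higher in CWR22Rv1 (0.26 ± 0.066, adjusted p = 0.0260 over probe sets) and in DU145 (0.46 ± 0.066, adjusted p = 1.40e-04). Here 1 gene was higher and 2 lower, against 4.7% and 6.05% of all genes (930 and 1196, or 1217 and 965 after quantile and 1185 and 985 after cyclic loess normalisation). In DU145, Stat5a/b siRNA arrays held more CDKN1B (0.34 ± 0.086, adjusted p = 0.00922) and less CDKN3 (-0.29 ± 0.065, adjusted p = 0.00378), CDKN1A (-0.29 ± 0.091, adjusted p = 0.0310) and CDKN1C (-0.37 ± 0.13, adjusted p = 0.0470) than Stat3 siRNA arrays. That is 1 gene higher and 3 lower, against 11% and 11.2% of all genes. CDKN2A (0.22 ± 0.080) and CDKN2B (-0.19 ± 0.073) did not pass there, although CDKN2A did under 5 of 13 alternatives, with adjusted p between 0.0154 and 0.0450, and CDKN2B under 3, with 0.0185 to 0.0418. CDKN1A was thus higher with Stat5a/b than with Stat3 siRNA in CWR22Rv1 and lower in DU145, and CDKN3 was lower in both lines. The DU145 call of CDKN1A was lost without Stat3 replicate 1 (adjusted p = 0.0845), Stat3 replicate 3 (0.0922), Stat5a/b replicate 1 (0.116) or Stat5a/b replicate 2 (0.154), and that of CDKN1B without Stat3 replicate 1 (0.0506), and both with DU145 fitted alone (0.152 and 0.0797). The call of CDKN1C was lost under 8 of 13 alternatives, with adjusted p between 0.0580 and 0.202. These were the omission of Stat3 replicate 1, Stat3 replicate 3 or Stat5a/b replicate 3 (-0.18), the replicate block (0.0639), both normalisations, the mean of probe sets (-0.17) and DU145 fitted alone.

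Of the differences between the lines in the effect of an siRNA, CDKN2B alone was called for Stat3 siRNA, where 1 gene was higher and 0 lower, against 1.82% and 1.18% of all genes (359 and 234, or 284 and 292 after quantile normalisation). For Stat5a/b siRNA, CDKN1A was higher and CDKN3 lower, against 6.75% and 5.17% of all genes. The wide intervals of the others leave sizeable differences possible, such as 0.06 to 0.58 for CDKN1B with Stat3 siRNA (difference 0.32 ± 0.12, adjusted p = 0.182) and -0.08 to 0.68 for CDKN1C with Stat5a/b siRNA (0.30 ± 0.18, adjusted p = 0.323).

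Tested over all probe sets, in CWR22Rv1 1 of the 16 was called under Stat3 siRNA and 5 under Stat5a/b siRNA, where 2% and 3.1% of all probe sets were called in either direction. In DU145 7 were called with Stat3 siRNA and 3 with Stat5a/b siRNA, against 9.02% and 15.6%. The probe sets of CDKN3 moved together, save with Stat5a/b siRNA in DU145, where neither was called. For CDKN1C, CDKN2B and CDKN2D only the brightest probe set was called in the comparisons with scramble siRNA. The second probe set of CDKN2B also fell with Stat5a/b siRNA in DU145 (-0.43 ± 0.19), without passing.

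**Figure D3:**
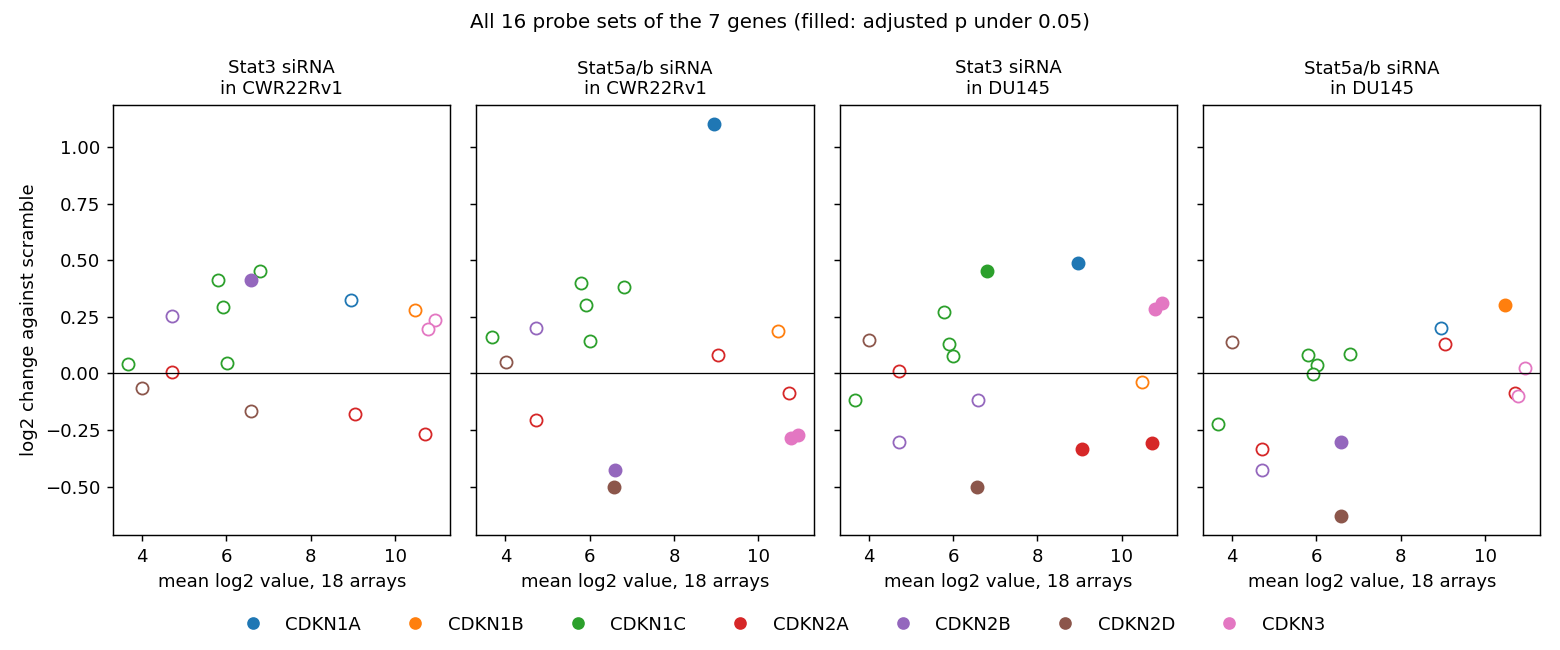
Log2 change of each of the 16 probe sets against scramble (vertical axis) over its mean log2 value on the 18 arrays (horizontal axis), coloured by gene, 1 panel per siRNA and line; filled points passed an adjusted p under 0.05 over all probe sets rather than over genes, under which CDKN3 with Stat3 siRNA in CWR22Rv1 is open. Probe sets with a mean below 5 on the log2 scale are open in every panel.

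The kinases and cyclins on which the inhibitors act were read from a list, whose counts stand beside the shares of all genes. Of 20 cyclins, cyclin-dependent kinases and their activators, 6 rose and 0 fell in CWR22Rv1 under Stat3 siRNA (2.75% and 2.02% of all genes), and under Stat5a/b siRNA 1 rose and 1 fell (3.16% and 3.3% of all genes). The 6 did not hold on leaving out any 1 array, which left 1 to 3 called. In DU145, Stat3 siRNA gave 8 rises and 3 falls (7.51% and 8.25% of all genes) and Stat5a/b siRNA 9 and 4 (11.8% and 12.5%). These shares of all genes are the background for the other lists too. CDK6, the kinase bound by the INK4 proteins, rose in all 4 comparisons. It read 8.96, 9.03 and 9.10 with Stat3 siRNA, 9.08, 9.09 and 9.10 with Stat5a/b siRNA and 8.31, 8.20 and 8.24 with scramble siRNA in CWR22Rv1, and the changes were 0.78 ± 0.14 (adjusted p = 0.00436) and 0.84 ± 0.14 (adjusted p = 0.00168). In DU145 it rose by 1.96 ± 0.14 with Stat3 siRNA (adjusted p = 1.39e-07) and 1.38 ± 0.14 with Stat5a/b siRNA (adjusted p = 3.82e-06). CCND1, the cyclin partner of CDK4 and CDK6, rose with Stat3 siRNA in CWR22Rv1 (0.26 ± 0.061, adjusted p = 0.0209) and in DU145 (0.32 ± 0.061, adjusted p = 0.0015). In DU145 it fell by 0.57 ± 0.061 under Stat5a/b siRNA (adjusted p = 5.39e-06), against -0.14 ± 0.061 in CWR22Rv1 (adjusted p = 0.229). CCNE2, a partner of CDK2, rose in DU145 with both siRNAs, by 0.77 ± 0.12 with Stat3 and 1.26 ± 0.12 with Stat5a/b siRNA. The list medians were 0.12 and -0.03 in CWR22Rv1 and 0.12 and 0.15 in DU145 for Stat3 and Stat5a/b siRNA in that order.

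Of 13 pocket proteins, E2F and DP factors, which act downstream of these kinases, 3 rose in CWR22Rv1 under Stat3 siRNA and 0 under Stat5a/b siRNA, and 6 and 7 rose in DU145, while 0 fell in any of the 4 comparisons. Leaving out any 1 array left 0 to 2 called for Stat3 siRNA in CWR22Rv1. RB1, the retinoblastoma gene, rose in DU145 by 0.52 ± 0.11 with Stat3 siRNA (adjusted p = 0.00322) and 0.49 ± 0.11 with Stat5a/b siRNA (adjusted p = 0.00298), and changed by 0.19 ± 0.11 and 0.12 ± 0.11 in CWR22Rv1 without passing. E2F7, a repressor among the E2F factors, rose with Stat3 siRNA in CWR22Rv1 (0.51 ± 0.11) and DU145 (0.92 ± 0.11). The list medians were 0.10 and 0.05 in CWR22Rv1 and 0.19 and 0.28 in DU145.

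Of 17 genes for the ubiquitin-dependent turnover of p21, p27 and p57, 2 rose with Stat3 siRNA in CWR22Rv1 and 0 were called with Stat5a/b siRNA there, whereas in DU145 Stat3 siRNA gave 3 rises and 2 falls and Stat5a/b siRNA 5 and 2. SKP2, the receptor that marks p27 for degradation, read 11.16, 11.13 and 11.14 with Stat3 siRNA, 11.32, 11.32 and 11.13 with Stat5a/b siRNA and 10.86, 10.69 and 10.79 with scramble siRNA in DU145. It rose there by 0.36 ± 0.061 (adjusted p = 5.62e-04) and 0.48 ± 0.061 (adjusted p = 3.14e-05), and gave 0.10 and -0.02 in CWR22Rv1, neither passing. Its cofactor CKS1B and DTL, the receptor for p21 during replication, rose in DU145 under both siRNAs and in CWR22Rv1 under Stat3 siRNA, by 0.24 to 0.60. MDM2, a ubiquitin ligase, fell by 0.67 ± 0.11 in DU145 under Stat5a/b siRNA (adjusted p = 3.06e-04), and gave -0.26 there under Stat3 siRNA and -0.20 and -0.25 in CWR22Rv1 under Stat3 and Stat5a/b siRNA without passing. The list medians lay between -0.02 and 0.04.

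Of 24 measured transcriptional regulators of the inhibitor genes, 2 rose and 1 fell in CWR22Rv1 under Stat3 siRNA, and under Stat5a/b siRNA 3 rose and 0 fell. In DU145 3 rose and 2 fell under Stat3 siRNA, against 7.51% and 8.25% of all genes, and 7 rose and 1 fell under Stat5a/b siRNA, against 11.8% and 12.5%. KLF4, an activator of CDKN1A, rose with Stat5a/b siRNA in CWR22Rv1 (0.66 ± 0.072, adjusted p = 2.60e-05) and DU145 (1.08 ± 0.072, adjusted p = 3.18e-08), and with Stat3 siRNA in CWR22Rv1 (0.30 ± 0.072), against 0.06 in DU145. FOXO3, an activator of CDKN1B, fell by 0.40 ± 0.10 with Stat3 siRNA in CWR22Rv1 (adjusted p = 0.0327) and in DU145 rose by 0.35 ± 0.10 under Stat5a/b siRNA (adjusted p = 0.0184). MYC, a repressor of CDKN1A and CDKN2B, was called in none of the 4 comparisons, with changes of -0.14 to 0.26. The list medians lay between 0.05 and 0.08.

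**Figure D4:**
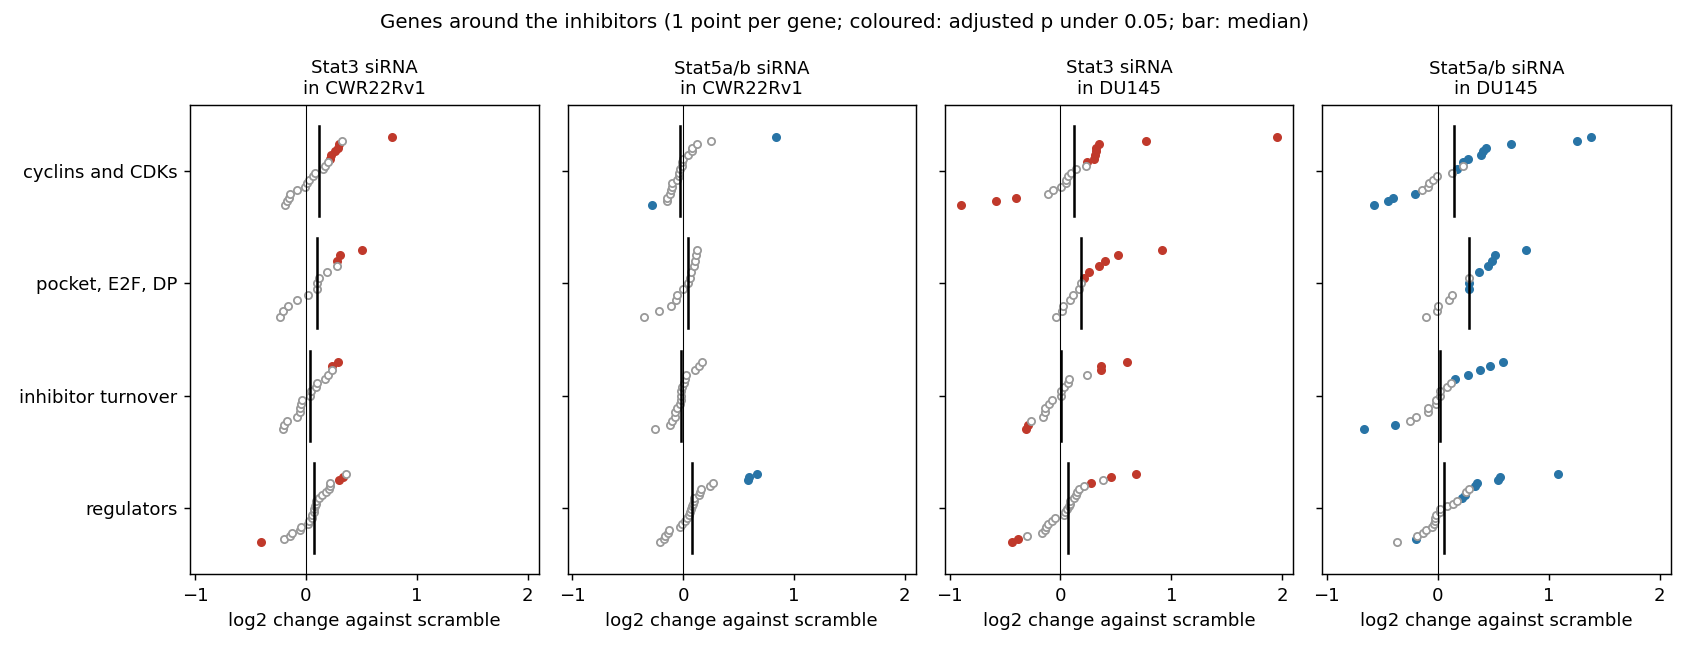
Log2 change against scramble of every measured gene in 4 lists of cell cycle genes around the inhibitors (1 point per gene, rows are lists), 1 panel per siRNA and line; coloured points passed an adjusted p under 0.05, and bars mark list medians. The point farthest to the right is CDK6, at 1.96 with Stat3 siRNA in DU145, and for pocket, E2F and DP genes no point left of 0 is coloured.

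CDKN2A (chr9:21967752-21995324, GRCh38.p14) and CDKN2B (chr9:22002903-22009313) lie beside each other, with MTAP, a gene of methionine salvage, at chr9:21802636-21941115 and the long noncoding RNA gene CDKN2B-AS1 at chr9:21994791-22128142, which contains CDKN2B and overlaps the start of CDKN2A, a gene of the minus strand. The brightest probe set of MTAP read 8.57, 8.49 and 8.57 with Stat3 siRNA, 8.20, 8.16 and 8.16 with Stat5a/b siRNA and 7.81, 7.82 and 7.88 with scramble siRNA in CWR22Rv1. In DU145 it read 8.95, 8.98 and 9.18 with Stat3 siRNA, 8.58, 8.45 and 8.90 with Stat5a/b siRNA and 7.44, 7.47 and 7.52 with scramble siRNA. It rose in all 4 comparisons, in CWR22Rv1 by 0.71 ± 0.091 with Stat3 and 0.34 ± 0.091 with Stat5a/b siRNA, and in DU145 by 1.56 ± 0.091 and 1.16 ± 0.091, while CDKN2A was called higher in none of them and CDKN2B only with Stat3 siRNA in CWR22Rv1. In the mean of all MTAP probe sets the changes were 0.26 and 0.10 in CWR22Rv1 and 0.40 and 0.23 in DU145, of which the second did not pass (adjusted p = 0.399). CDKN2B-AS1 lay between 2.28 and 2.81 on all arrays, near the lower end of the array's values, and was called only with Stat3 siRNA in DU145 (0.28 ± 0.089, adjusted p = 0.0418). Of all 18 measured neighbours of the 7 genes, 1 rose with each siRNA in CWR22Rv1 (2.75% of all genes for Stat3 and 3.16% for Stat5a/b siRNA). With any 1 array left out, 0 were called for Stat5a/b siRNA there. In DU145 3 rose and 3 fell under Stat3 siRNA (7.51% and 8.25% of all genes), and 3 rose under Stat5a/b siRNA (11.8%). Beside CDKN3, GMFB fell by 0.60 ± 0.052 with Stat3 siRNA in DU145 (adjusted p = 9.77e-07), where CDKN3 rose. The neighbours' median changes lay between -0.0042 and 0.07.

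**Figure D5:**
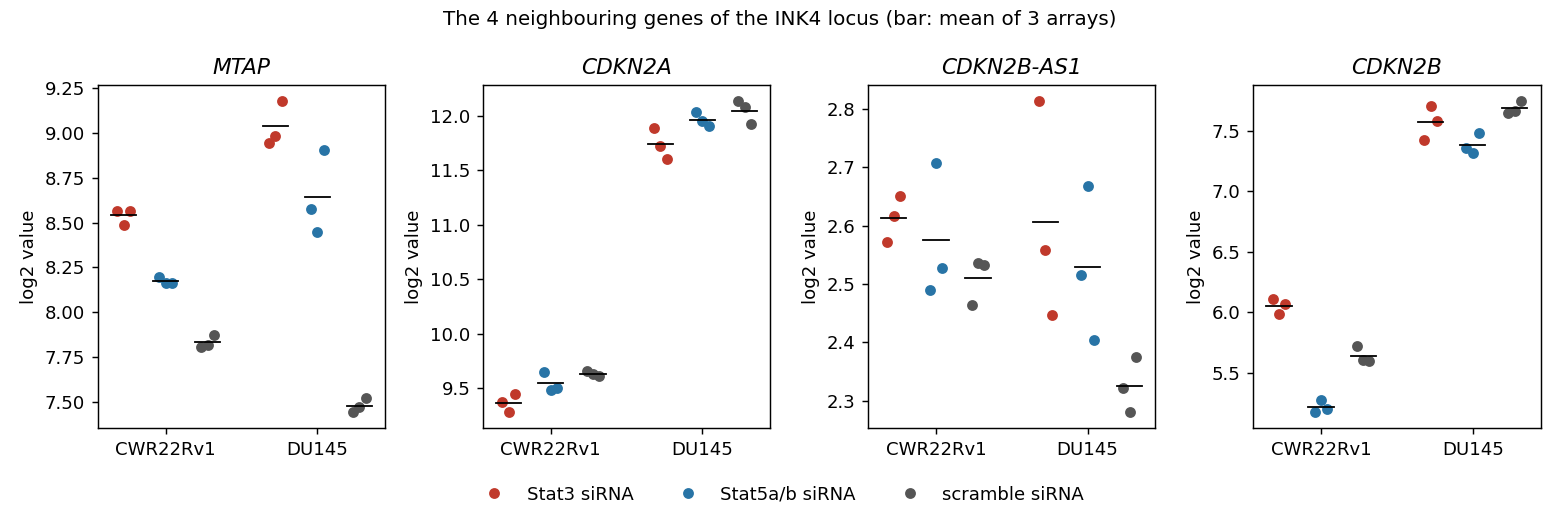
Log2 values of MTAP, CDKN2A, CDKN2B-AS1 and CDKN2B in each array, with CWR22Rv1 to the left of DU145 and Stat3 siRNA (red), Stat5a/b siRNA (blue) and scramble siRNA (grey) within each line; bars are means of 3 arrays and each panel has its own scale. MTAP is higher in every siRNA array than in every scramble array of its line, CDKN2A and CDKN2B are lower throughout CWR22Rv1, and CDKN2B-AS1 lies between 2.28 and 2.81.

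The genes with the most similar pattern were found by Pearson correlation over the 18 arrays after each line's own mean had been subtracted. The arrays of a group share their siRNA, so these values describe likeness across 3 groups in each of the lines and carry no test. CDKN3 was most like VRK1 (r = 0.944), ECI2 (0.937) and CCDC167 (0.932), with r of 0.918 or more within each line of 9 arrays. CDKN2B was most like GARS1-DT (0.950), ROCK2 (0.945) and CDHR3 (0.917), with r of 0.944 to 0.989 in CWR22Rv1 but 0.700 to 0.847 in DU145. CDKN1A was most like GPR137B (0.914), H2AC6 (0.889) and LAMP1 (0.883). For H2AC6 and LAMP1 r was 0.942 and 0.986 in CWR22Rv1 but 0.674 and 0.614 in DU145, and for GPR137B 0.911 and 0.931. For CDKN2D the most similar genes were MRPL40 (0.923), OGA (0.918) and PDPR (0.904), and for CDKN2A SLC35D4 (0.918), LRP8 (0.913) and NUP50 (0.901). The lowest values belonged to CDKN1B, with LYSMD3 (0.880), RSAD2 (0.851) and FRA10AC1 (0.848), and CDKN1C, with ORAI3 (0.877), DNPH1 (0.861) and CFL2 (0.856). None of the 7 genes was among the 3 genes most like another.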

How the data were processed

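Total RNA of 18 samples was hybridised to Affymetrix U133 Plus 2.0 arrays. Per the submitters' processing notes, which name RMA and limma without versions, the authors deposited log2 values for every probe set, from 1.54 to 14.3 with array medians of 5.16 to 5.20. No further scaling was applied, and no detection calls were used, so the margin of a dim value above background is unknown. The 3 arrays of a group limit the precision.

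Of 54675 probe sets, 41091 carried 1 gene symbol in the platform annotation, and the one with the highest mean over all arrays stood for each of 19775 genes. A linear model with 6 group means was fitted across 18 arrays (limma 3.58.1, R 4.3.3, functions lmFit and eBayes, with 12 residual and 3.82 prior degrees of freedom). P-values are two-sided and adjusted by Benjamini-Hochberg over genes in each comparison, with calls at an adjusted p under 0.05. Standard errors pool the spread of all groups, although DU145 arrays were more spread than CWR22Rv1 arrays. A second fit covered the 54613 probe sets other than controls. The scripts were tested on simulated data. Folds and percentages are 2 raised to the log2 change.

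The 7 genes and the 5 lists around them were chosen with earlier results of these data known, and a further list is not reported here. The text names all 7 genes and their probe sets, the siRNA targets, genes among up to 4 called per list and comparison by smallest adjusted p, the 3 genes most correlated with each inhibitor gene, and SKP2, CKS1B, MYC, FOXO3, RB1, MDM2, CCND1, CDK6, CCNE2 and MTAP. CDKN2B-AS1 was added after its values were seen. Alternatives were quantile and cyclic loess normalisation, the mean of a gene's probe sets, only genes brighter than the median gene, an intensity trend, a replicate block, each line fitted alone, and leaving out each array.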

Additional observations from a re-analysis of the deposited data

Results flagged for a closer look

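The effect of an siRNA differed between the lines for 3 of the 7 genes, in the test of the difference itself (limma, Benjamini-Hochberg adjustment over all genes). For Stat3 siRNA this was 1 gene, where 1.82% of all genes were called higher and 1.18% lower in CWR22Rv1. For Stat5a/b siRNA it was 2 genes, against 6.75% higher and 5.17% lower. The effect of Stat5a/b siRNA on CDKN1A was higher in CWR22Rv1 than in DU145 by 0.90 ± 0.13 (adjusted p = 3.77e-04), and passed under all 18 alternatives. That of Stat3 siRNA on CDKN2B was higher in CWR22Rv1 by 0.53 ± 0.10 (adjusted p = 0.0122), and also passed under all 18 alternatives, with adjusted p of at most 0.0449. The effect of Stat5a/b siRNA on CDKN3 differed by -0.30 ± 0.091 (adjusted p = 0.0458), and passed under 5 of 18. Knockdown differed between the lines too, by 0.49 ± 0.13 for STAT3 (adjusted p = 0.0495) and 0.45 ± 0.13 for STAT5B (adjusted p = 0.0312), both less complete in CWR22Rv1, and its part in these differences was not tested. STAT3 itself stood under scramble siRNA at 8.16% of the DU145 level in CWR22Rv1 (limma, adjusted p = 1.99e-15), and the part of this was not tested either.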

How the results depend on the processing

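Of the 7 genes' changes, 416 of 462 kept their direction and side of the threshold with 1 array left out (41 calls lost, 5 gained), and 361 of 413 under other settings (25 lost, 27 gained). None of these reversed, apart from 22 and 5 changes of sign among values called under neither setting. Of the other named genes, 792 of 864 and 929 of 996 kept both, with CNIH1 reversed for Stat3 siRNA in DU145 (0.0683, adjusted p = 0.412 in the mean of all probe sets, against -0.17). The scalings moved the median of all genes by at most 0.0217 in size. The causes of the changes listed here were not tested.

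Inhibitor genes called numbered as follows. For Stat3 siRNA in CWR22Rv1 (2 called) there were 0 with the mean of probe sets, 1 with cyclic loess, and 6 with the brighter genes only, an intensity trend or each line alone. For Stat5a/b siRNA in CWR22Rv1 (4) there were 2 with the mean of probe sets, and quantile normalisation called 3 probe sets in place of 5. In DU145 there were 2 with the mean of probe sets and 3 with the line alone for Stat3 siRNA (5), and 1 with the line alone both for Stat5a/b siRNA (3) and for Stat5a/b against Stat3 siRNA (4). The line difference for Stat5a/b siRNA (2) gave 1 with the mean of probe sets, cyclic loess or a replicate block. Leaving out an array gave 1 to 2 and 2 to 4 in CWR22Rv1 for Stat3 and Stat5a/b siRNA, 3 to 5 for Stat3 siRNA in DU145, 2 to 4 for Stat5a/b against Stat3 siRNA in DU145, and 1 to 2 for each line difference. Over all genes, Stat3 and Stat5a/b siRNA called 944 and 1277 in CWR22Rv1 in the fit used above. These numbers were 724 and 989 with the mean of probe sets, and 945 and 1313 with cyclic loess. They were 1409 and 1684 with the brighter genes only, and 1297 and 1605 with an intensity trend. In DU145 Stat3 siRNA called 2636 with the mean of probe sets (3117). The line difference for Stat5a/b siRNA (2357) gave 1964 with that mean, 2477 with cyclic loess and 2965 with a block.

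With each line fitted alone, list counts in DU145 fell to 8 for cyclins with Stat5a/b siRNA, 3 for turnover and 3 for regulators with Stat3 siRNA, 4 for regulators with Stat5a/b siRNA, and 2 for neighbours with Stat3 siRNA. In CWR22Rv1 Stat3 siRNA gave 6 turnover genes and 6 regulators with the line alone, 5 turnover genes and 2 neighbours with the brighter genes only, 4 and 2 with an intensity trend, and 1 turnover gene with the mean of probe sets. Stat5a/b siRNA in CWR22Rv1 gave 1 cyclin, 1 turnover gene and 0 neighbours with the mean of probe sets, 4 cyclins, 1 pocket gene, 5 regulators and 2 neighbours with an intensity trend, and 2 pocket genes, 5 regulators and 3 neighbours with the brighter genes only. It gave 1 pocket gene each with quantile, cyclic loess, a block and the line alone, 2 neighbours with cyclic loess or a block, and 1 turnover gene and 4 neighbours with the line alone. Leaving out an array gave in CWR22Rv1 with Stat3 siRNA 1 to 3 cyclins, 0 to 2 pocket genes, 0 to 2 turnover genes and 1 to 2 regulators. With Stat5a/b siRNA it gave 1 cyclin and 0 neighbours throughout, and in DU145 3 to 6 and 4 to 10 regulators for Stat3 and Stat5a/b siRNA and 3 to 4 neighbours for Stat3 siRNA.

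The replicate numbers were not taken as pairing, which would need every same-numbered pair to deviate together by r over 0.1. In DU145 5 of 9 did and all were above 0 (0.012 to 0.328, median 0.122), against 0 of 18 pairs of unlike number (median -0.0755), although not every array correlated best with its own number. In CWR22Rv1 1 of 9 did (-0.067 to 0.139, median 0.005, against -0.0135). With the replicate block, 49 of 56 changes of the 7 genes kept their call, 4 gained and 3 lost it. Calls among the regulators then numbered 13 in DU145 for Stat5a/b siRNA and 6 in CWR22Rv1 for Stat3 siRNA. All genes called with the block numbered 5327 in DU145 for Stat5a/b siRNA (4805 without it). In CWR22Rv1 they numbered 1198 for Stat3 siRNA (944) and 1584 for Stat5a/b siRNA (1277). Over all genes, fitting each line alone called in CWR22Rv1 2059 for Stat3 siRNA and 2372 for Stat5a/b siRNA (944 and 1277 in the joint fit) and 1549 and 2877 in DU145 (3117 and 4805). For Stat5a/b against Stat3 siRNA it called 3775 in CWR22Rv1 (2126) and 2379 in DU145 (4379). Leaving out an array gave in CWR22Rv1 448 to 547 for Stat3 siRNA, 718 to 844 for Stat5a/b siRNA, 1388 to 1640 for Stat5a/b against Stat3 siRNA, and 292 to 780 for the line difference of Stat3 siRNA (593), which gave 945 with the brighter genes only, 898 with an intensity trend and 903 with a replicate block.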
